A study of Rattus norvegicus with 14 samples.

Results

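The G1 cyclins, their kinase Cdk4, the CDK inhibitors Cdkn1a and Cdkn1b, and Myc were followed across 14 arrays of rat IEC-6 cells exposed to 3 non-steroidal anti-inflammatory drugs. The 7 genes, Ccnd1, Ccnd2, Ccnd3, Cdk4, Cdkn1a, Cdkn1b and Myc, were taken by symbol with all their probe sets, from 14217 named genes on the array. They had 11 probe sets, of which 10 reached a signal of 100 on at least 2 arrays and were tested among 17515 such probe sets. The probe set left out, 1387391_at of Cdkn1a, lay between 37.6 and 87.7 on the 14 arrays.

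IEC-6 is a non-transformed line from the crypts of rat small intestine. Monolayers were kept for 72 h with 100 µM indomethacin, which inhibits both cyclooxygenases (2 arrays), 100 µM NS-398, which prefers cyclooxygenase-2 (4 arrays), 1 µM SC-560, which prefers cyclooxygenase-1 (4 arrays), or the solvent DMSO (4 arrays). Array labels carried the digit 1 or 2, with or without a suffix b that the labels do not explain. Arrays without the suffix (2 each for NS-398, SC-560 and DMSO) and arrays of set b (2 each for indomethacin, NS-398, SC-560 and DMSO) are kept apart below as label sets. Cultures were pooled and several chips were hybridised per sample, per the series' design text, so the p-values below rest on array-to-array spread and this spread may be technical.

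In the G1 phase, D-type cyclins made in response to growth signals bind Cdk4 or Cdk6, and the complexes phosphorylate the retinoblastoma protein, which frees E2F factors to switch on genes of DNA replication. Cdkn1a (p21) and Cdkn1b (p27) inhibit the cyclin E and cyclin A kinases and also take part in assembling cyclin D complexes. Myc is a transcription factor induced by growth signals that acts with Max on E-box sequences in genes of growth and ribosome synthesis. In intestinal crypts, Ccnd1 and Myc are known as genes that Wnt and growth factor signals activate.

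Between the label sets 59% of probe sets differed (limma adjusted p under 0.05), with 7 of the 10 member probe sets among those called. Beta-actin controls had 3′ over 5′ signal ratios of 1.22 to 1.34 in set b and 1.50 to 1.64 without the suffix. The intestinal factor Cdx2 read 3072 to 5314 in set b and 55.0 to 124 without the suffix, and Krt19 read 345 to 766 in set b and 44.8 to 136 without it. Other epithelial markers went the opposite way. Cdh1 read 2637 to 3671 in set b and 7680 to 8412 without the suffix, and Tjp1 6963 to 7836 and 11328 to 12301. Of 7 tested epithelial markers, 4 were called higher in set b and 3 lower (limma). Of 12 epithelial markers, Krt8, Cdh1 and Tjp1 were high on all arrays, while Krt18, Epcam, Cldn3, Cldn4 and Cldn7 stayed under 100, and Krt19, Vil1, Cdx2 and Ocln reached 100 on some arrays. Of 12 fibroblast and smooth muscle markers, Vim, Col1a1, Col1a2, Col3a1, Dcn, Acta2 and Tagln were above 100 on all arrays, Lum, Pdgfra and Myh11 on some, and Pdgfrb and Thy1 on none. Of 7 leukocyte markers on the array, Cd14 read 2871 to 4088, Cd68 reached 100 on 2 arrays, and Ptprc, Cd3e, Itgam, Lyz2 and Csf1r stayed under 100. Of 4 endothelial markers, Tek read 182 to 801, Kdr reached 100 on 5 arrays, and Pecam1 and Vwf stayed under 100. These are bulk RNA samples, in which fewer cells of a type and less RNA per cell cannot be told apart. Within a group and set, log2 signals of paired arrays correlated between 0.988 and 0.991.

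Promoter windows of 250 bases before to 50 after the start site were found in the RefSeq table (GRCr8) for 4 of the 7 genes, and those of Cdk4 and Cdkn1b are printed. Cdk4 is shown because its window holds 3 copies of the E-box CACGTG, the sequence that Myc with Max is known to bind, in capitals. Cdkn1b is shown as the inhibitor that differed under NS-398, with its 2 CCAAT boxes in capitals (CCAAT, or ATTGG where the box lies on the opposite strand). The Cdk4 window lies at chr7:64771203-64771502 and the Cdkn1b window at chr4:169491254-169491553, both on the plus strand.
Cdk4: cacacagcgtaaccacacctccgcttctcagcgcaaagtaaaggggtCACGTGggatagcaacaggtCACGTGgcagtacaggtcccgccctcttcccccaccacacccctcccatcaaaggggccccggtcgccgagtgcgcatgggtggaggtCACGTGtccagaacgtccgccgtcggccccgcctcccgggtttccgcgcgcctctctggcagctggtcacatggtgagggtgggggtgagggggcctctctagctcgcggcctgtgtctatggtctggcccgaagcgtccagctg
Cdkn1b: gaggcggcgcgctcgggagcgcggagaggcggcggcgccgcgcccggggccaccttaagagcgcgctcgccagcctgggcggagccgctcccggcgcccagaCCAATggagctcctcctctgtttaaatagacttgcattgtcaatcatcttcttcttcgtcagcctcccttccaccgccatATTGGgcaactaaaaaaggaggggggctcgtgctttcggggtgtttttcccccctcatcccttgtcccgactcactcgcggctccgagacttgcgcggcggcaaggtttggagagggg
The E-box reads the same on both strands. Its first bases lay at -203, -183 and -95 from the start site of Cdk4, and the boxes of Cdkn1b began at -148 and -68. An E-box was present in 6.418% and 3 or more in 0.05677% of 33469 windows of the same length, while a CCAAT box was present in 37.49%. The windows of Ccnd3, Cdkn1a and Cdkn1b held no E-box in these letters, and Ccnd3 had a CCAAT box at -132. A match is a description of letters and not of bound protein.

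Ccnd1, the D cyclin most tied to growth factor signals, was higher under both indomethacin and NS-398. All 3 of its probe sets rose under NS-398, by 0.56 to 0.76 on the scale of log2(signal + 50), and 2 of the 3 rose under indomethacin. Under SC-560 none of the 3 passed the test. Because differences are on log2(signal + 50), folds of dim probe sets are understated. Probe sets of a gene are not compared in level with each other or with those of other genes.

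On 1383075_at, Ccnd1 read 6667 and 6052 under indomethacin, both on set b arrays. Under NS-398 it read 6641 and 6667 without the suffix and 6481 and 7602 in set b. Under SC-560 it read 4148 and 4475 without the suffix and 4995 and 5133 in set b, against DMSO readings of 4553 and 3804 without the suffix and 3718 and 4032 in set b. All arrays of indomethacin and NS-398 thus lay above all DMSO arrays, and those of SC-560 did so in set b and overlapped without the suffix. How many of all probe sets separate in this way was not counted, here or below.

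The log2 change of this probe set was 0.62 ± 0.10 (SE) for indomethacin (limma adjusted p 0.00158), 0.76 ± 0.07 for NS-398 (5.6e-06) and 0.22 ± 0.07 for SC-560 (adjusted p 0.498, unadjusted 0.00948). Adjusted p-values are Benjamini-Hochberg values over all 17515 probe sets, with 0.05 as the threshold for a call. The change under SC-560 differed between the sets in size, at 0.38 ± 0.08 in set b alone (limma adjusted p 0.120) and 0.05 ± 0.08 without the suffix (0.974), and that difference was not tested.

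On 1371150_at, Ccnd1 read 1374 and 1506 under indomethacin. It read 1543, 1791, 1465 and 1499 on NS-398 arrays 1, 2, 1b and 2b and 1058, 1049.7, 1222 and 1185 on the SC-560 arrays in the same order, against 907, 971, 972 and 1069 on the DMSO arrays. Indomethacin and NS-398 arrays were again above every DMSO array, and SC-560 arrays lay above the DMSO arrays of their own label set. The log2 change was 0.51 ± 0.10 for indomethacin (limma adjusted p 0.00886), 0.66 ± 0.08 for NS-398 (3.9e-05) and 0.19 ± 0.08 for SC-560 (0.587). Without indomethacin array 2b the adjusted p for indomethacin was 0.141.

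On 1371643_at, Ccnd1 read 3003 and 3046 under indomethacin. It read 2996, 2900.4, 3690.0 and 3749 on NS-398 arrays 1, 2, 1b and 2b and 2249, 1859, 2512 and 2678 on the SC-560 arrays, against 2238, 2125, 2367 and 2228 on the DMSO arrays. Arrays of indomethacin and NS-398 lay above all DMSO arrays here too, and those of NS-398 were higher in set b. SC-560 arrays lay above DMSO in set b and overlapped DMSO without the suffix. The log2 change was 0.56 ± 0.07 for NS-398 (limma adjusted p 5.8e-05), 0.04 ± 0.07 for SC-560 (0.943), and 0.30 ± 0.09 for indomethacin (0.0718), which did not pass. Fitted on set b alone, where the indomethacin arrays have DMSO arrays of the same set, it was 0.39 ± 0.06 for indomethacin (0.0042), and over both sets it also passed without DMSO array 1 (0.0494).

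**Figure D1:**
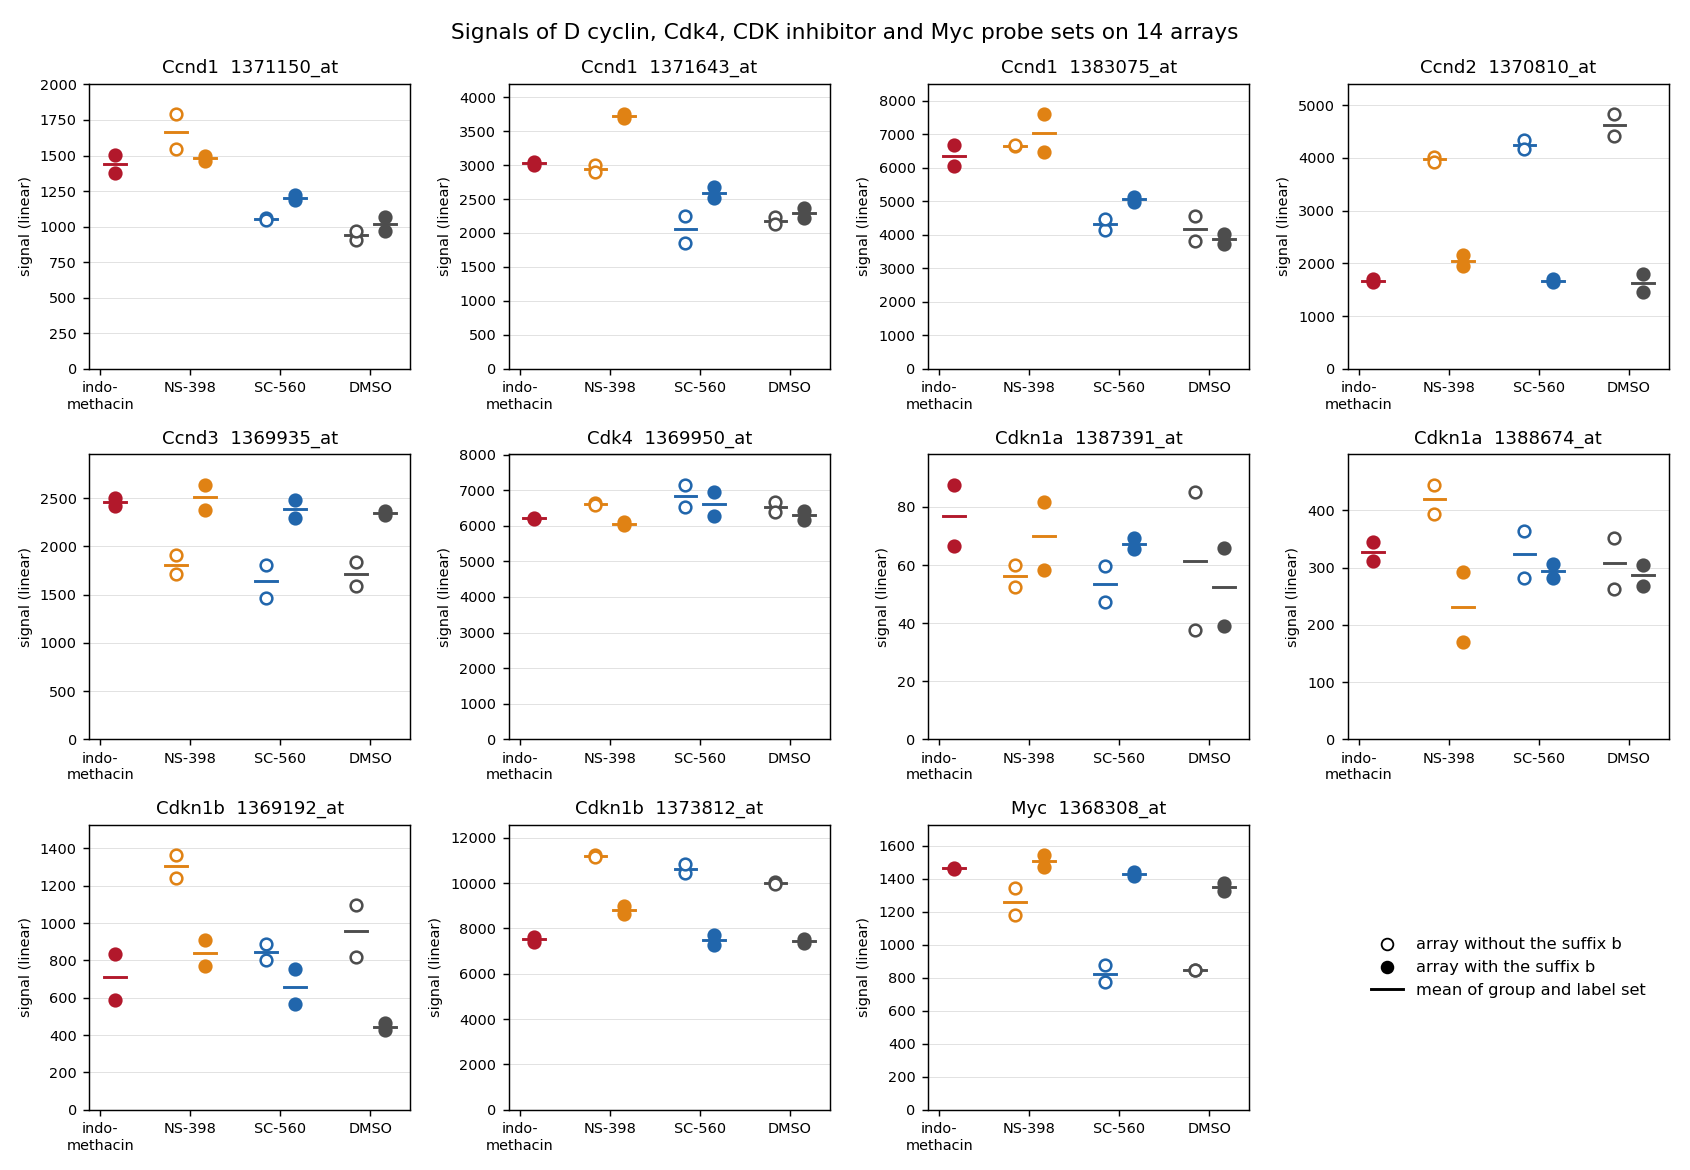
Signal (linear scale, scaled by the authors to a target of 500) of the 11 probe sets of Ccnd1, Ccnd2, Ccnd3, Cdk4, Cdkn1a, Cdkn1b and Myc on 14 arrays, grouped by treatment; open circles are arrays without the suffix b, filled circles arrays of set b, and short lines the mean of each group and set. All indomethacin and NS-398 points of the 3 Ccnd1 probe sets sit above all DMSO points, while Ccnd2 splits by label set, at 1454 to 2151 in set b and 3927 to 4827 without the suffix.

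Ccnd2, a D cyclin that overlaps in function with Ccnd1, differed by label set. It read 1701 and 1642 under indomethacin, all of set b. Under NS-398 it read 4015 and 3927 without the suffix and 1954 and 2151 in set b. It read 4335, 4162, 1694 and 1637 on SC-560 arrays 1, 2, 1b and 2b, against 4407, 4827, 1454 and 1794 on the DMSO arrays. The SC-560 arrays lay below DMSO without the suffix and overlapped DMSO in set b. Set b was lower than the arrays without the suffix by a log2 difference of -1.25 ± 0.08 (limma adjusted p 1.98e-10). Over both sets, no drug changed Ccnd2 past the threshold (-0.07 ± 0.12 for indomethacin, 0.06 ± 0.09 for NS-398 and -0.04 ± 0.09 for SC-560).

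Within the sets, the NS-398 arrays lay on opposite sides of DMSO for Ccnd2: above in set b (0.33 ± 0.09, limma adjusted p 0.0179) and below without the suffix (-0.21 ± 0.09, 0.132). The difference between these effects was 0.55 ± 0.12 (limma adjusted p 0.0170), with 5.47% of all probe sets called on this test and Ccnd2 the only call among the 10 of the members. It lost its call without DMSO array 2 (0.0771) or 1b (0.0793), without NS-398 array 1 (0.0520), 2 (0.0749) or 2b (0.0656), and in a fit without an intensity trend (0.0994).

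Ccnd3, the third D cyclin, passed the test for none of the drugs. It read 2414 and 2498 under indomethacin, and 1715, 1907, 2639 and 2379 on NS-398 arrays 1, 2, 1b and 2b. It read 1468, 1808, 2296 and 2475 on the SC-560 arrays, against 1838, 1589, 2361 and 2325 on the DMSO arrays. The sets were apart (set b higher by 0.48 ± 0.06, limma adjusted p 1.4e-06), while treatments overlapped within the arrays without the suffix. In set b the indomethacin and NS-398 arrays lay above the DMSO arrays, by a narrow margin, and those of SC-560 overlapped them. The change of Ccnd3 was 0.05 ± 0.09 for indomethacin, 0.09 ± 0.07 for NS-398 and -0.02 ± 0.07 for SC-560, with limma adjusted p-values of 0.841, 0.464 and 0.974. The 95% interval for NS-398 ran from -0.06 to 0.24.

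Cdk4, the kinase that the D cyclins activate, passed the test for none of the drugs. It read 6197 and 6221 under indomethacin, and 6631, 6597, 6019 and 6107 on NS-398 arrays 1, 2, 1b and 2b. It read 6543, 7157, 6964 and 6271 on the SC-560 arrays, against 6671, 6397, 6173 and 6410.5 on the DMSO arrays. All arrays lay between 6019 and 7157. The 95% interval of its change ran from -0.13 to 0.12 for indomethacin, from -0.11 to 0.08 for NS-398 and from -0.03 to 0.16 for SC-560, so that changes of the size seen for Ccnd1 under NS-398 lie outside all 3 intervals.

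**Figure D2:**
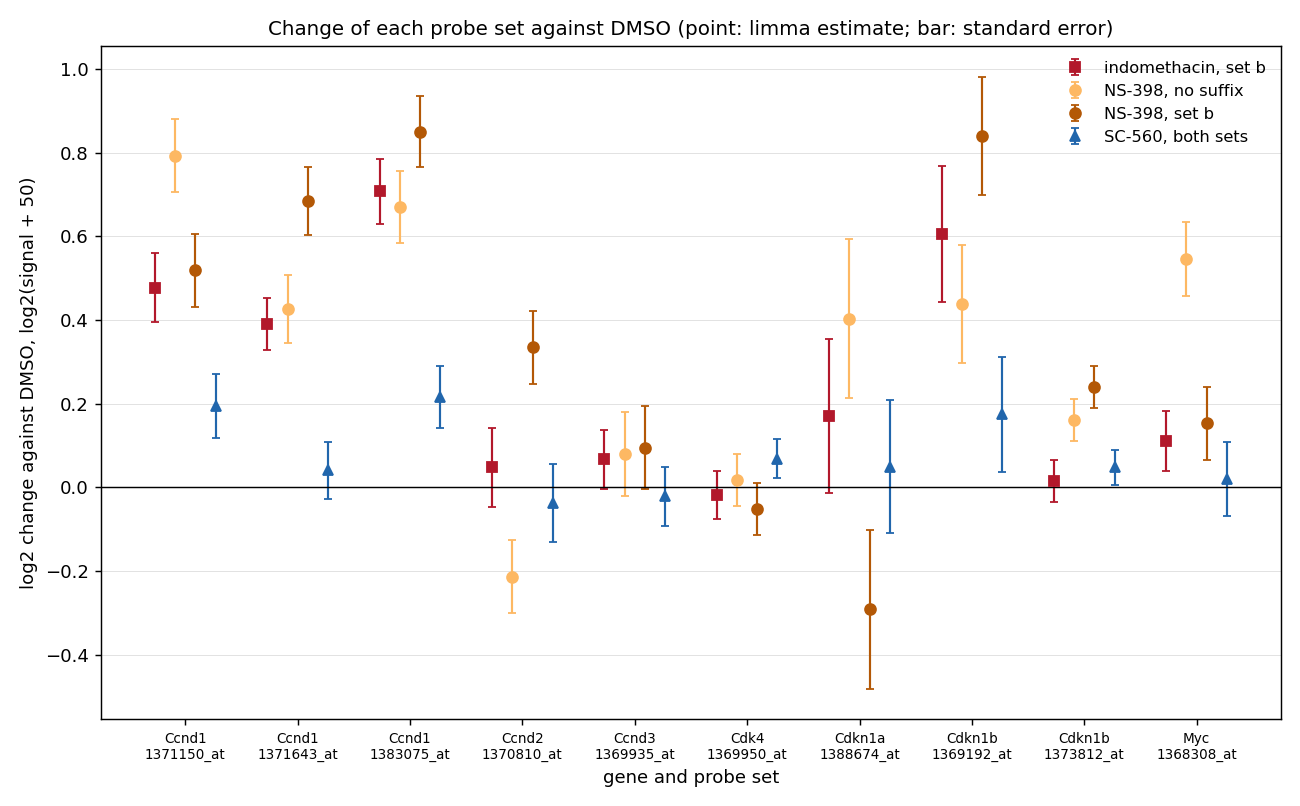
Change against DMSO (y axis, log2(signal + 50), limma estimate with its standard error as bars) of the 10 tested probe sets (x axis) for indomethacin in set b, NS-398 without the suffix, NS-398 in set b, and SC-560 over both sets. The 3 Ccnd1 probe sets lie between 0.39 and 0.85 for indomethacin and NS-398, Cdk4 lies near 0 in all, and Ccnd2 and Cdkn1a have opposite signs in the NS-398 sets.

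Cdkn1b, the inhibitor p27 that is known to accumulate in resting cells, rose under NS-398 on both its probe sets. On 1369192_at it read 836 and 590.1 under indomethacin, and 1364, 1244, 769 and 909 on NS-398 arrays 1, 2, 1b and 2b. It read 804, 886, 565 and 755 on the SC-560 arrays, against 1095, 821, 465 and 426 on the DMSO arrays. Within each set both NS-398 arrays lay above both DMSO arrays, as did the indomethacin and the SC-560 arrays within set b. Without the suffix the SC-560 arrays overlapped DMSO. The change under NS-398 was 0.64 ± 0.14 (limma adjusted p 0.00552).

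The other probe set of Cdkn1b, 1373812_at, read 7423 and 7641 under indomethacin, and 11235, 11139.8, 8975 and 8654 on NS-398 arrays 1, 2, 1b and 2b. It read 10443, 10852, 7282 and 7704 on the SC-560 arrays, against 10037, 9979.9, 7359 and 7549.9 on the DMSO arrays. NS-398 arrays were again above DMSO arrays in each set, while the indomethacin arrays overlapped them. Those of SC-560 lay above DMSO without the suffix and overlapped DMSO in set b. The change under NS-398 was 0.20 ± 0.04 (limma adjusted p 0.00445), smaller than on the probe set before. Within set b the changes of the 2 probe sets were 0.84 ± 0.14 (0.00108) and 0.24 ± 0.05 (0.00472), and without the suffix 0.44 ± 0.14 (0.0587) and 0.16 ± 0.05 (0.0517), which did not pass.

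Under indomethacin the probe sets of Cdkn1b disagreed. The change was 0.43 ± 0.18 on 1369192_at (limma adjusted p 0.228) and 0.02 ± 0.05 on 1373812_at (0.927). In the fit to set b alone 1369192_at passed, at 0.60 ± 0.16 (0.0473), and 1373812_at stayed at 0.01 ± 0.05 (0.905). Neither probe set passed for SC-560 (0.17 ± 0.14 and 0.05 ± 0.04). In set b alone 1369192_at was at 0.51 ± 0.16 for SC-560 (0.304), where its 2 DMSO arrays of 465 and 426 were the lowest of the 14.

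Cdkn1a, the inhibitor p21 and a classic target of p53, was measurable only on 1388674_at, where signals were low. It read 345 and 311 under indomethacin, and 394 and 445 without the suffix and 293 and 169.5 in set b under NS-398. It read 282, 364, 282 and 307 on SC-560 arrays 1, 2, 1b and 2b, against 352, 263, 304 and 269 on the DMSO arrays. NS-398 arrays lay above DMSO without the suffix and overlapped DMSO in set b. No drug changed it past the threshold (0.29 ± 0.21 for indomethacin, 0.06 ± 0.16 for NS-398, 0.05 ± 0.16 for SC-560; limma adjusted p 0.514, 0.866 and 0.973).

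The NS-398 effect on Cdkn1a was -0.29 ± 0.19 in set b and 0.40 ± 0.19 without the suffix. The difference of -0.69 ± 0.27 did not pass (limma adjusted p 0.151). Without NS-398 array 1b, which leaves array 2b at 169.5 alone in its group and set, it was -1.02 with an adjusted p of 0.0322.

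Myc read 1469 and 1459.5 under indomethacin. Under NS-398 it read 1343 and 1181 without the suffix and 1544 and 1474 in set b. It read 879, 772, 1439 and 1418 on SC-560 arrays 1, 2, 1b and 2b, against 849.6, 845, 1377 and 1328 on the DMSO arrays. NS-398 arrays were above DMSO arrays in each set, by a wide margin without the suffix and by a narrow margin in set b. In set b the indomethacin and the SC-560 arrays were also above DMSO. Without the suffix the SC-560 arrays overlapped DMSO.

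Over both sets Myc rose under NS-398 by 0.35 ± 0.09 (limma adjusted p 0.0154). Arrays without the suffix gave an effect of 0.55 ± 0.09 (9.8e-04) and those of set b 0.15 ± 0.09 (0.287), and the difference between these, -0.39 ± 0.12, did not pass (0.0771). The call over both sets was lost without NS-398 array 1 (adjusted p 0.0542). Myc did not pass for indomethacin (0.16 ± 0.12, 0.533; 0.11 ± 0.07 in set b alone, 0.408) or SC-560 (0.02 ± 0.09, 0.982).

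Counted together, 2 of the 10 member probe sets were called for indomethacin, both of Ccnd1 and both higher, beside 3.27% of all probe sets called (1.51% called higher). For NS-398 6 of 10 were called, all higher, from Ccnd1, Cdkn1b and Myc, beside 13.5% of all (7.12% called higher). Within sets, NS-398 gave 6 calls of 10 in set b (14.2% of all probe sets) and 4 of 10 without the suffix (11.3%). In set b alone indomethacin gave 4 calls of 10, the 3 Ccnd1 probe sets and 1369192_at of Cdkn1b, beside 6.7% of all. Probe sets of 1 gene are not independent, so that these calls stand for 1 gene under indomethacin and 3 genes under NS-398 over both sets.

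SC-560 was given at a lower dose than the other drugs, and its values are set beside theirs without a test between them. In limma 0 of 10 member probe sets were called, beside 0% of all, and 2 of 10 and 1263 of 17515 had an unadjusted p under 0.05. Both of these member probe sets were of Ccnd1. The median change of the 10 was 0.22 for indomethacin, 0.27 for NS-398 and 0.05 for SC-560, against medians of all probe sets within 0.01 of 0. The drugs share their DMSO arrays.

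Indomethacin and NS-398 were compared directly at their shared dose of 100 µM. None of the 10 probe sets was called, beside 5.45% of all, and 2 had an unadjusted p under 0.05 in limma. The closest were 1373812_at of Cdkn1b, at -0.18 ± 0.05 for indomethacin minus NS-398 (limma adjusted p 0.0556), and 1371643_at of Ccnd1, at -0.25 ± 0.09 (0.107). Without NS-398 array 2 the probe set of Cdkn1b passed, at -0.20 (0.0499). For the other Ccnd1 probe sets the 95% interval of the difference ran from -0.36 to 0.07 and from -0.34 to 0.06, and for Myc from -0.43 to 0.05.

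Fitted on the 8 arrays of set b alone, 2 of the 10 were called lower under indomethacin than under NS-398, beside 9.31% of all. They were 1371643_at of Ccnd1 (-0.29 ± 0.06, limma adjusted p 0.0140) and 1373812_at of Cdkn1b (-0.23 ± 0.05, 0.0168). On these probe sets Ccnd1 read 3003 and 3046 under indomethacin against 3690.0 and 3749 under NS-398, and Cdkn1b 7423 and 7641 against 8975 and 8654, with no overlap in either. The other probe sets of these genes did not pass in limma, and their arrays overlapped. They were 1371150_at (-0.04 ± 0.08, adjusted p 0.812) and 1383075_at (-0.14 ± 0.08, 0.292) of Ccnd1 and 1369192_at of Cdkn1b (-0.24 ± 0.16, 0.421).

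The question behind this choice of genes is whether growth control changed ahead of DNA replication. All arrays were taken at 72 h, so that an order in time cannot be read from them, and the 2 kinds of genes can only be set side by side. In the lists below each gene is represented by its probe set of highest mean log2 signal, and 9840 named genes were tested in this way. Called genes named beyond the 2 of smallest adjusted p in each direction, and those named within a label set, were chosen after their values were seen.

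Under indomethacin, Ccnd1 was called higher, and of 41 replication genes none was called over both sets (limma; 2 at an unadjusted p under 0.05; median -0.01). Over both sets 1.55% of all 9840 genes were called higher and 2.04% lower. In set b alone only Gins4 of the 41, a subunit of the replicative helicase complex, was called, lower by -0.41. The median of the 41 in set b alone was -0.06, against 0.00 for all 9840 genes, of which 399 were called higher and 351 lower. Pcna, the sliding clamp of DNA polymerase, read 9815 and 9485 under indomethacin and 9727 and 9795 under DMSO in set b, which overlap. Of 31 mitosis genes, 3 were called lower in set b alone (Ect2 at -0.34, Kif23 at -0.37 and Racgap1 at -0.20, all known for roles in cell division) and none over both sets (2 at an unadjusted p under 0.05).

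Under NS-398 the replication genes went opposite ways in the label sets, whereas Ccnd1 was called higher in both. Without the suffix 13 of 41 were called higher and 0 lower (median 0.23, 39 of 41 above 0), and in set b 0 were called higher and 8 lower (median -0.16, 9 of 41 above 0). Among all 9840 genes the shares called higher and lower were 8.98% and 7.18% in set b and 6.66% and 6.82% without the suffix. The test of the difference in NS-398 effect between the sets called 13 of the 41, all with a lower effect in set b. Among all genes it called 3.87% higher and 2.91% lower. The 13 included Mcm10, which helps start replication forks (-0.998 ± 0.174, limma adjusted p 0.00409), and Gins4 (-0.77 ± 0.14, 0.00515). In level the 41 differed between the sets too, with 23 called higher in set b and 7 lower (limma, median 0.24). Among all genes 34.6% were called higher in set b and 28.6% lower. The NS-398 effects in the 2 sets thus started from unlike levels, whose part in them was not tested.

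Single arrays weighed on these counts. The 13 higher calls without the suffix became 3 without DMSO array 2, 5 without NS-398 array 1, 4 without NS-398 array 2 and 9 without DMSO array 1, with the median between 0.18 and 0.26. The 8 lower calls in set b became 2 without DMSO array 1b, 4 without DMSO array 2b, 5 without NS-398 array 1b and 4 without NS-398 array 2b, with the median between -0.21 and -0.11. The 13 calls for the difference became 5 without DMSO array 2 or NS-398 array 2, 4 without DMSO array 1b and 8 without NS-398 array 1b, with its median between -0.42 and -0.34 for all 8 omissions. The member calls within sets were 4 or 5 without the suffix and 4 to 6 in set b when each array of the set was left out.

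Mcm10 read 467 and 412 under NS-398 without the suffix against 235 and 248 under DMSO, and 381 and 339 against 441 and 434 in set b. The NS-398 arrays of set b and those without the suffix thus lay on opposite sides of their DMSO arrays. Over both sets, Pcna (0.15 ± 0.04, limma adjusted p 0.0215) and the licensing factor Cdt1 (0.32 ± 0.09, 0.0246) were the replication genes called for NS-398, both higher, beside 7.91% of all genes called higher and 7.07% lower. No replication gene was called without DMSO array 2, NS-398 array 1 or NS-398 array 2, and 1 was called without DMSO array 1.

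**Figure D3:**
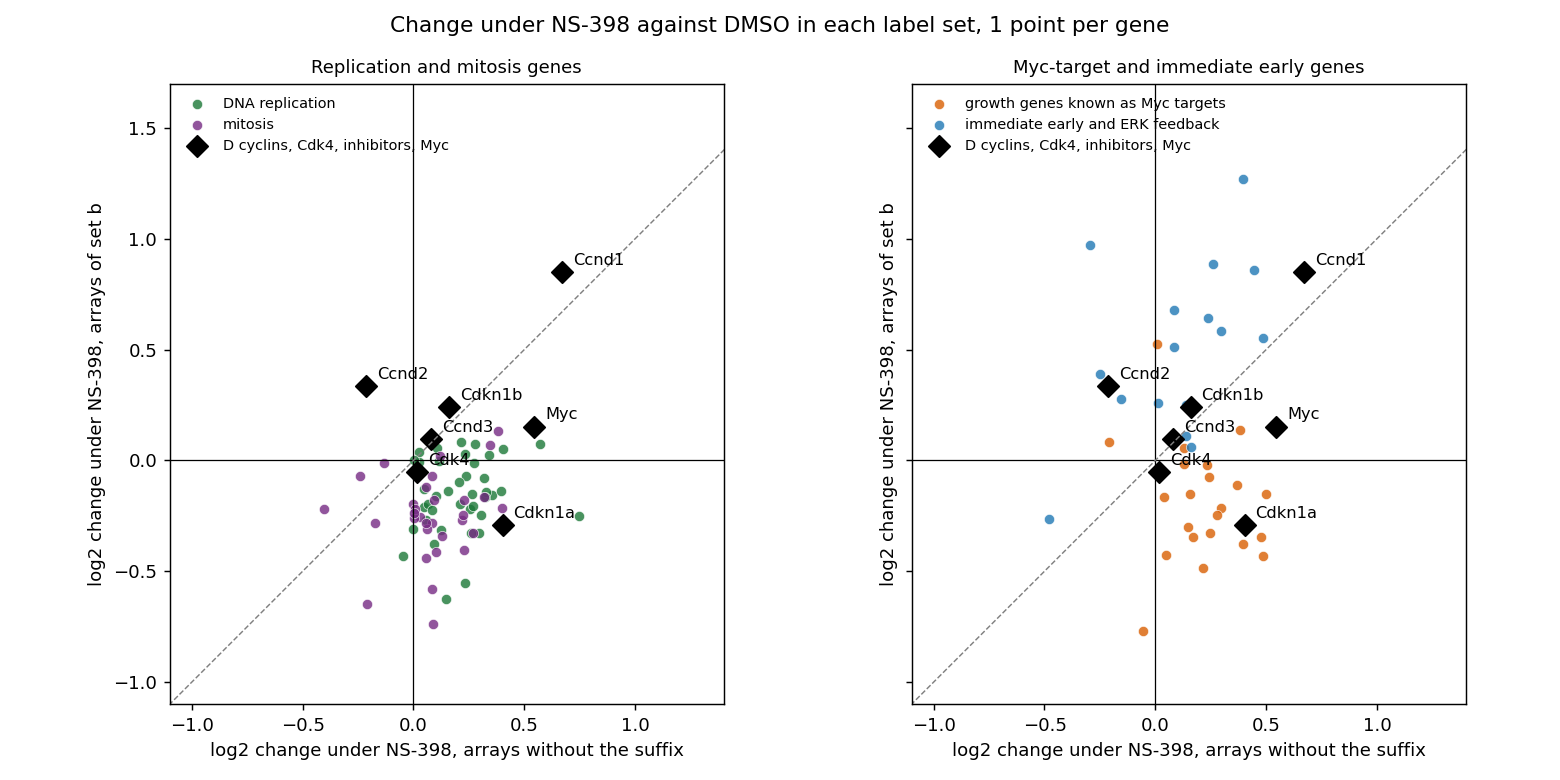
Change under NS-398 against DMSO on log2(signal + 50) without the suffix (x axis) and in set b (y axis), 1 point per gene, with the 7 members as diamonds, replication and mitosis genes in the left panel and growth and immediate early genes in the right panel; the dashed line marks equal change. Replication genes lie mostly right of 0 and below 0, whereas Ccnd1 lies above 0 on both axes, at 0.67 without the suffix and 0.85 in set b.

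Mitosis genes followed a similar split. In set b 14 of 31 were called lower and 0 higher (median -0.25), and without the suffix 4 were called higher and 0 lower (median 0.08). Of all genes, 8.98% were called higher and 7.18% lower in set b, and 6.66% and 6.82% without the suffix. The 4 were Cks2, Hmmr, Mad2l1 and Ube2c. The 14 became 7, 6, 9 and 7 without DMSO array 1b, DMSO array 2b, NS-398 array 1b and NS-398 array 2b, and the 4 became 2 without DMSO array 2 or NS-398 array 2. Over both sets Cks2, which binds the mitotic kinase Cdk1, rose (0.26 ± 0.05, limma adjusted p 0.00426), and the proliferation marker Mki67 (-0.23 ± 0.05, 0.00818), cyclin A2 (Ccna2, -0.43 ± 0.12, 0.0298) and the mitotic kinase Plk1 (-0.31) fell. The 3 lower calls became 1 without NS-398 array 1b. The difference in NS-398 effect between the sets called 7 of the 31, all with a lower effect in set b, and 3 without NS-398 array 2. Among the 7 were Ube2c (-0.48 ± 0.09) and Kif23 (-0.66 ± 0.12). In level 29 of the 31 were called higher in set b and 0 lower (limma, median 0.51), beside 34.6% and 28.6% of all genes. For NS-398 over both sets 7.91% of all genes were called higher and 7.07% lower. The test of the difference called 3.87% of all genes higher and 2.91% lower.

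Growth and ribosome genes known as Myc targets showed the same opposite signs. Of 22 tested, 1 was called higher and 8 lower in set b (median -0.19), and 7 higher and 0 lower without the suffix (median 0.23). Of all genes, 8.98% were called higher and 7.18% lower in set b, and 6.66% and 6.82% without the suffix. Odc1, which makes polyamines and is a textbook Myc target, read 1866 and 1768 under indomethacin. It read 4014 and 4109 under NS-398 against 3065 and 2744 under DMSO without the suffix, and 2055 and 2249 against 2935 and 2572 in set b. Its NS-398 effect differed between the sets by -0.83 ± 0.11 (limma adjusted p 7.2e-04), and that of Nop58, a ribosome assembly factor, by -0.77 ± 0.10 (3.7e-04).

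In all, this difference was called for 10 of the 22 growth genes with a lower NS-398 effect in set b. It was called for 1, the glycolysis enzyme Ldha, with a higher effect. Among all genes this test called 2.91% lower and 3.87% higher. The 10 became 5 without DMSO array 1b and 6 without NS-398 array 1. The 7 higher calls without the suffix became 2 without DMSO array 1 and 3 without DMSO array 2, NS-398 array 1 or NS-398 array 2, and the 8 lower calls in set b became 4 without DMSO array 1b and 5 without NS-398 array 1b. For Myc itself the difference was -0.39 ± 0.12 and did not pass. Under indomethacin in set b alone 1 of the 22 was called higher (Ldha, 0.17) and 4 lower (Odc1 at -0.58, Fbl at -0.32, Nolc1 at -0.28 and Rrs1 at -0.36). Of all genes, 4.05% were called higher and 3.57% lower in that fit.

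Of 10 Myc partners and antagonists, none was called over both sets for any drug in limma, with 1 at an unadjusted p under 0.05 for indomethacin and 0 for NS-398 and SC-560. Mxd4, an antagonist of Myc, and Mycn, its relative, differed in their NS-398 effect between the sets (0.70 ± 0.14, limma adjusted p 0.00778, and 0.69 ± 0.15, 0.0122). Mxi1 did so as well (0.59), and all 3 effects were higher in set b, beside 3.87% of all genes called higher on this test. The 3 calls became 1 without DMSO array 1b. Mycn read 493 and 452 under NS-398 against 327 and 398 under DMSO in set b, and 1003 and 1040.4 against 1255 and 1373 without the suffix.

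Among the other regulators of G1 and of entry into S phase, 25 of 27 listed genes were on the array and 21 were tested. Fbxw7, part of the ubiquitin ligase that removes cyclin E and Myc, fell under indomethacin (-0.46 ± 0.12, limma adjusted p 0.0404), with 365 and 344 under indomethacin against 465 and 491 under DMSO in set b. It was the only call of the 21 over both sets for indomethacin and was not called when any of the DMSO or indomethacin arrays was left out. In set b alone it stayed lower at -0.38, as did Ccnh, a subunit of the CDK-activating kinase, at -0.33. Under NS-398 Fbxw7 read 648 and 678 in set b, above those DMSO arrays, and was called higher there (0.43), a call lost on omission of any 1 of these 4 arrays.

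Under NS-398, Ccne1 (cyclin E1) rose by 0.41 ± 0.09 (limma adjusted p 0.00812), with 495, 561, 509 and 449 on NS-398 arrays 1, 2, 1b and 2b against 379, 335, 349 and 408 on the DMSO arrays, which did not overlap. Cks1b, a partner of the ligase that removes p27, rose by 0.23 ± 0.07 (0.0466), and Mnat1, which assembles the CDK-activating kinase, fell by 0.22 (0.0146). Of the 21, 2 were thus called higher and 1 lower (9.52% and 4.76%), near the 7.91% and 7.07% of all genes. The 2 higher calls became 1 without DMSO array 2 or 2b or NS-398 array 1, 2 or 1b. The medians of the 21 were -0.18 for indomethacin, -0.03 for NS-398 and -0.04 for SC-560. The NS-398 effect on Tfdp1, the E2F partner DP1, differed between the sets (-0.41 ± 0.11, limma adjusted p 0.0355), and the list had no call on this test without DMSO array 1, 2 or 1b or NS-398 array 1, 2 or 2b.

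Immediate early and ERK feedback genes respond to growth factor signals. Of 16 tested under NS-398, 8 were called higher and 1 lower over both sets (median 0.32), 12 higher and 1 lower in set b (median 0.53), and 2 higher and 1 lower without the suffix (median 0.14). Shares of all genes called higher were 7.91%, 8.98% and 6.66% in the same order, and shares called lower 7.07%, 7.18% and 6.82%. Spry2, a feedback inhibitor of growth factor signals, rose by 0.52 ± 0.07 (limma adjusted p 1.2e-04) and Ier2 by 0.65 ± 0.10 (6.3e-04), and Egr1 fell by 0.37 (0.0023). The 8 became 4 without DMSO array 1b and 3 without NS-398 array 2b, and the 12 in set b became 7 without DMSO array 1b. Without the suffix the 2 were Ier2 and Spry2, and 1 was called without DMSO array 2, NS-398 array 1 or NS-398 array 2.

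The NS-398 effect differed between the sets for 4 of the 16, among them Fos (1.26 ± 0.18, limma adjusted p 0.00113) and Dusp6 (0.64 ± 0.12, 0.00728), and 2 without DMSO array 2 or 1b or NS-398 array 2 or 1b. Fos read 2399 and 1733 under NS-398 against 1029 and 1005 under DMSO in set b, and 3495 and 2826 against 3509 and 4254 without the suffix. In level 2 of the 16 were called higher in set b and 12 lower (limma, median -0.60), beside 34.6% and 28.6% of all genes. The test of the difference in NS-398 effect called 3.87% of all genes higher and 2.91% lower. Under indomethacin none of the 16 was called over both sets in limma (5 at an unadjusted p under 0.05, and 1 call without DMSO array 1 or 2), and 4 were called higher and 1 lower in set b alone. The 4 were Dusp6, Fosl1, Ier2 and Junb, and the lower was Jun. Of all genes, 4.05% were called higher and 3.57% lower in set b alone.

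FoxO factors and anti-proliferative genes gave calls in the higher direction only. For NS-398, 6 of 12 were called higher over both sets, 6 in set b and 4 without the suffix, with medians of 0.22, 0.24 and 0.12, beside 7.91%, 8.98% and 6.66% of all genes called higher. Tob1, an anti-proliferative adaptor of mRNA decay, read 5696, 6153, 5047 and 4852 on NS-398 arrays 1, 2, 1b and 2b against 3432, 3919, 3378 and 3352 on the DMSO arrays, a rise of 0.62 ± 0.06 (limma adjusted p 3.1e-06). Btg1, another anti-proliferative gene, rose by 0.30 ± 0.04 (6.6e-05). For indomethacin Txnip (0.30 ± 0.07, 0.0212) and Tob1 (0.29 ± 0.07, 0.0356) were the calls over both sets, and neither was called without DMSO array 1b, DMSO array 2b or either indomethacin array.

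Of 15 p53 targets other than Cdkn1a, 5 were called higher and 0 lower for NS-398 over both sets (median 0.14), beside 7.91% and 7.07% of all genes, while Cdkn1a itself was not called. They were Gadd45a (0.51 ± 0.09, limma adjusted p 0.00159), Bbc3 (0.28 ± 0.06, 0.00745), Mdm2 (0.24), Sesn2 (0.60) and Zmat3 (0.42), and 3 of the 15 were called without DMSO array 2 or NS-398 array 2. Within sets, 4 were called higher and 0 lower in set b, and 3 higher and 1 lower, Plk2, without the suffix. Of all genes, 8.98% were called higher and 7.18% lower in set b, and 6.66% and 6.82% without the suffix. For indomethacin 0 of the 15 were called over both sets in limma (3 at an unadjusted p under 0.05) and 2, Fas and Plk2, in set b alone. The NS-398 effect differed between the sets for Plk2 (1.17 ± 0.14, limma adjusted p 3.7e-04), Fas (0.92 ± 0.24, 0.0371) and, in the other direction, Sesn2 (-0.92 ± 0.21, 0.0191), beside 3.87% of all genes called higher and 2.91% lower. Sesn2 was called as the only lower gene, and that call was lost without DMSO array 1, 2 or 2b or NS-398 array 1, 2 or 1b; the 2 higher calls became 1 without any array but NS-398 array 1b, where there were 3. Of 7 Wnt targets other than Ccnd1 and Myc, the adhesion receptor Cd44 was the call for NS-398 over both sets, at 0.65 ± 0.09 (2.2e-04). In set b 1 of the 7 was called higher, Cd44, and 0 lower, and without the suffix 2 were called higher, Cd44 and Ephb3, and 3 lower, Axin2, Nkd1 and Znrf3. The 3 lower calls became 1 without DMSO array 1 and 0 without DMSO array 2, NS-398 array 1 or NS-398 array 2, and the call in set b was lost without DMSO array 1b or NS-398 array 2b.

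**Figure D4:**
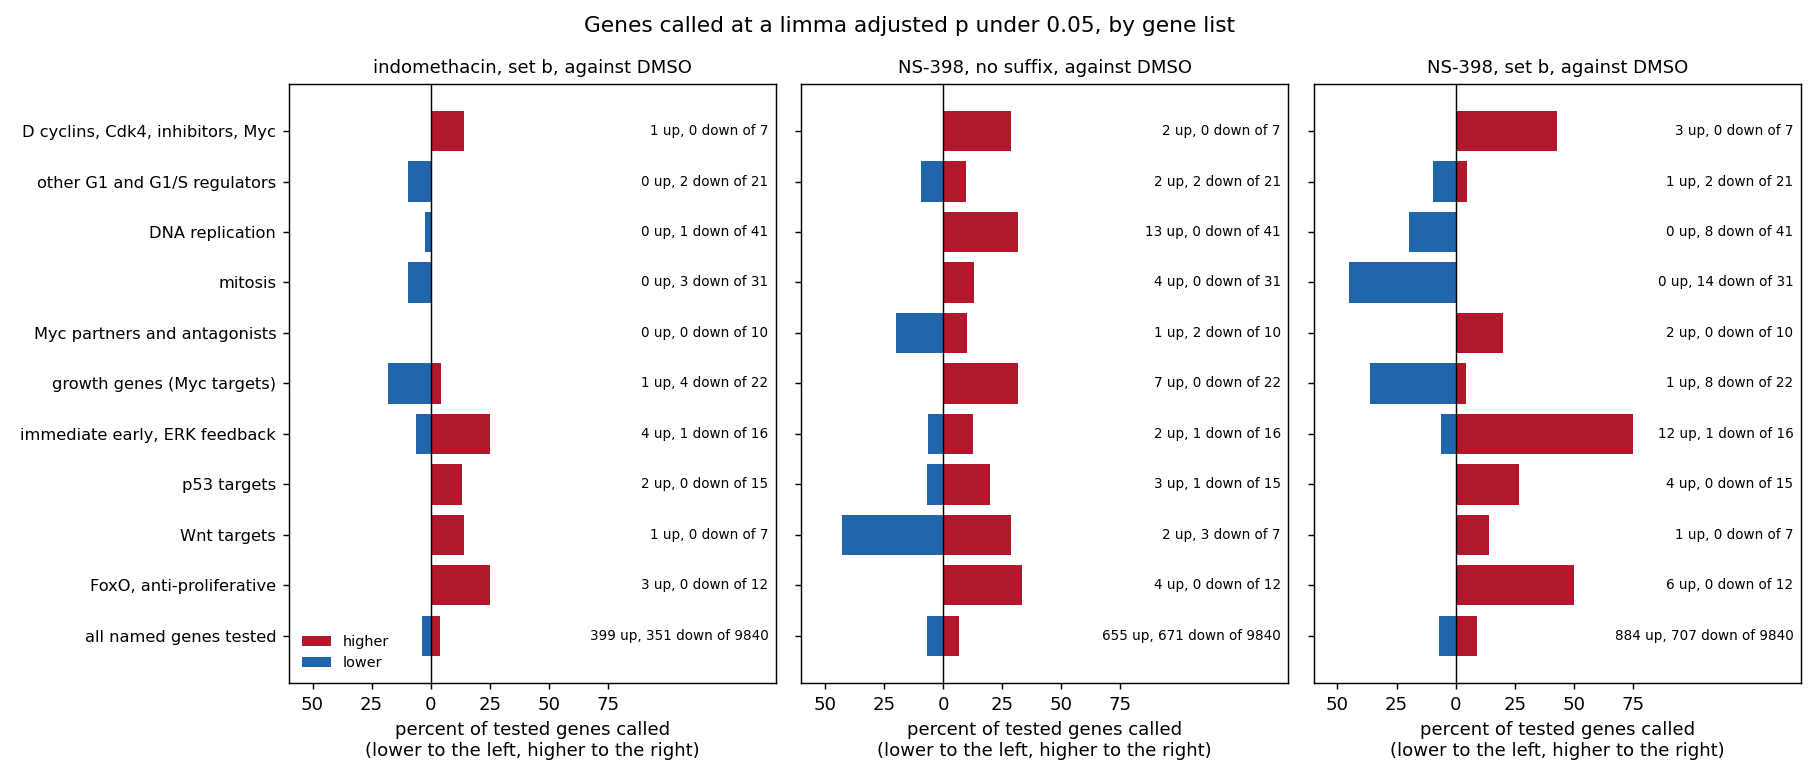
Share of the tested genes of each list called higher (red, to the right) or lower (blue, to the left) at a limma adjusted p under 0.05, in percent, for indomethacin in set b alone, NS-398 without the suffix and NS-398 in set b, each against DMSO. Replication, mitosis and growth genes change sides between the NS-398 panels, while the 7 members have 1, 2 and 3 genes called higher, of which only Ccnd1 is called in all 3 panels, beside 399 up and 351 down, 655 up and 671 down, and 884 up and 707 down of 9840 genes.

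The genes most like each member over the 14 arrays were found by Pearson correlation of log2 signals with the mean of each label set removed, among 8106 genes whose signal averaged 200 or more. These correlations share arrays and treatments and are given as descriptions. Ccnd1 was most like the aldehyde dehydrogenase Aldh2 (r = 0.940) and Ier2 (0.939), the immediate early gene named above. Cdkn1b was most like Ppp1r15a (0.959), which ends the integrated stress response, and Ankrd37 (0.954). Myc was most like Aldh1a1 (0.953) and Mtbp (0.938), an Mdm2-binding protein.

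For the members that were not called for any drug over both sets the closest genes were Lrpap1 (0.896) and Bnip3 (0.890) for Ccnd2, Ssx2ip (0.908) and Dnajb4 (0.861) for Ccnd3, Cdc16 (0.856) and Wac (0.808) for Cdk4, and Mtfr1 (0.832) and Chrd (0.825) for Cdkn1a. Among the members themselves, treated in the same way over the 14 arrays, Ccnd1 went with Myc (r = 0.715) and with Cdkn1b (0.683), and Ccnd2 went against Cdkn1a (-0.772). Cdk4 had correlations between -0.323 and 0.202 with the other members.

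Summed signals of the fibroblast and smooth muscle markers (12 of 12 on the array) were 91800 to 96625 under NS-398 against 91045 to 94414 under DMSO in set b, and 68306 to 72414 against 72747 to 74901 without the suffix. Those of the epithelial markers (12 of 12) were 20416 to 21722 against 19878 to 20372 in set b, and 22551 to 22712 against 23465 to 23707 without the suffix. Under indomethacin the sums in set b were 90812 to 94249 and 23326 to 23675. Those of the leukocyte markers (7 of 8) were 4017 to 4352 under indomethacin and 3947 to 4109 under NS-398 against 3380 to 3643 under DMSO in set b, and 4169 to 4202 under NS-398 against 3757 to 3952 under DMSO without the suffix, so that both drugs lay above DMSO as they did for Ccnd1. Cd14, which made up most of these sums, was called higher under indomethacin (0.27 ± 0.07, limma adjusted p 0.0497) and not under NS-398 (0.16 ± 0.06, 0.0741). Those of the endothelial markers (4 of 5) were 808 to 867 under indomethacin and 708 to 724 under NS-398 against 720 to 772 under DMSO in set b, and 341 to 434 under NS-398 against 309 to 337 under DMSO without the suffix. Of 7 tested epithelial markers 2 were called higher and 1 lower under NS-398 in set b, and 0 higher and 2 lower without the suffix. The part of these marker genes in the changes of Ccnd1, Cdkn1b and Myc was not tested.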

How the data were processed

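RNA of IEC-6 cells was amplified in 2 rounds and hybridised to 14 Affymetrix rat arrays of 1 colour, per the labels' protocols. The deposited intensities are the authors' scaled signals per probe set (target 500, per the labels), on a linear scale: the trimmed mean of each array was 500.163 to 500.173, and 49.7 to 52.4% of 31099 probe sets reached 100. No column was left unmapped. The platform annotation gave 1 symbol to 20832 probe sets, several to 436 and none listed for 9831, and 57 controls were left out.

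Signals were not normalized further. log2(signal + 50) was fitted with limma 3.58.1 in R 4.3.3 on probe sets of at least 100 on 2 arrays, with group and label set as terms and an intensity trend. NS-398 effects within sets and their difference came from a fit to the 12 arrays without indomethacin. Set b alone was fitted on its 8 arrays. The fit was tested on simulated data.

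Named genes are the members, up to 2 called genes per list and direction by adjusted p, and the 2 most like each member. The members and lists were chosen with earlier results of these data known. Alternatives were pseudocount, filter, trend, quantile normalization, blocks, label set and omission of each array of the groups compared. Arrays of the other groups in a fit were not left out.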

Additional observations from a re-analysis of the deposited data

Results flagged for a closer look

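Among 33 groups of 4 arrays examined, 1 held an array set apart from the other 3. Chance alone sets apart about 1 in 20 groups of 4 values that share 1 distribution. Each group here held 2 arrays of each label set, so that rate need not apply. On 1383075_at of Ccnd1, NS-398 array 2b read 7602, against 6641, 6667 and 6481 on the other NS-398 arrays, and its gap to the nearest was 0.834 of the range of the group.

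The effect of NS-398 on Ccnd2 differed between the label sets by 0.55 on the log2 scale (set b minus no suffix, limma adjusted p 0.0170). It was above 0 in set b and below 0 without the suffix.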

How the results depend on the processing

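Arrays were left out only from the groups compared. Of single-member values under the alternatives, 766 kept their side of the threshold, 16 lost the call, 8 gained it and 0 calls reversed. Values that were not called could change sign. The change of Ccnd2 under NS-398, 0.06 in the main fit, ran from -0.21 to 0.33. For indomethacin the 572 probe sets called became 347 with no filter, 328 with no intensity trend, 2 with no label set term, 283 with a random block, 1174 in set b alone and 100 to 482 when each array was left out, and the 2 member calls became 0 with no label set term, 4 in set b alone and 1 to 3 with an array left out. For NS-398 the 2366 became 111 with no label set term and 1561 with a random block, and the 6 member calls became 2 with no label set term. For SC-560 the 0 became 2 with no trend, 3 in set b alone and 2 on arrays without the suffix alone. For indomethacin against NS-398 the 954 became 15 with no label set term, 544 with a random block, 1630 in set b alone and 261 to 918 with an array left out, and the 0 member calls became 2 in set b alone and 0 to 1 with an array left out. For the NS-398 effect by set the 958 became 586 with no filter, 330 with no trend and 408 to 758 with an array left out, and the 1 member call became 0 with no trend and 0 to 2 with an array left out. Within sets, with alternatives chosen after seeing the data, replication genes higher without the suffix (13) became 4 with no trend and 3 to 9 with an array left out, and those lower in set b (8) became 5 with no filter, 2 with no trend and 2 to 5. Mitosis genes higher without the suffix (4) became 2 to 4, and those lower in set b (14) became 8, 4 and 6 to 9. Growth genes higher without the suffix (7) became 4, 2 and 2 to 3, and those lower in set b (8) became 5 with no trend and 4 to 7. Immediate early genes higher without the suffix (2) became 1, 1 and 1 to 2, and those higher in set b (12) became 7 to 11. Member calls within sets were 4 to 5 without the suffix and 4 to 6 in set b with an array left out. The cause was not tested where only the fit changed. Same-labelled arrays of different groups did not deviate together (r from -0.0784 to 0.0630, 9 distinct values, since the 2 arrays of a group and set deviate as mirror images), and with the label as replicate block 388 probe sets were called for indomethacin, 1953 for NS-398, and 732 for indomethacin against NS-398, with 2, 6 and 0 member calls, while SC-560 had 0 of either. The replicate block was not run for the NS-398 effect by set. The number of arrays, 2 in each group and set, limits the precision.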
